A study of Mus musculus with 80 samples.

Results

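RXR ChIP-Seq peak lists from wild-type (WT) livers and from livers lacking PPARg (KO), all taken from mice fed pioglitazone (Pio) in control diet, were compared site by site. The comparison uses the 10 ChIP libraries titled Pio_Diet_RXR_WT and Pio_Diet_RXR_KO, 5 livers per genotype, of 80 libraries in the series. All mice were male and received the diet for 12 weeks up to 5 months of age. The study's methods name C57BL6/J for the WT mice and do not state the strain background of the crossed KO mice. Any difference in background therefore cannot be told apart from the genotype. WT Pio livers carried intact Pparg. KO Pio livers carried, per the study's methods, floxed Pparg alleles cut by Cre under the albumin promoter, so that cells other than hepatocytes kept the gene. Both groups received the drug, and livers on control diet without Pio (WT Control and KO Control, 5 each) serve only as a reference. The labels name an RXR antibody for WT Pio, WT Control and KO Control but none for KO Pio. From these labels alone, the antibody entry and the genotype cannot be told apart within the Pio groups. The KO Pio titles do say RXR, and the study's methods describe ChIP with an anti-RXR antibody for both genotypes.

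RXR is the nuclear receptor that pairs with PPARg, PPARa, LXR, FXR and the thyroid and retinoic acid receptors. The PPAR pairs bind direct repeats of a hexamer spaced by 1 base (DR1), which mostly lie in promoters, introns and distal enhancers. Pioglitazone is a PPARg agonist, and in fatty liver PPARg drives lipid droplet and lipid uptake genes such as Cidec, Plin4, Mogat1 and Cd36. An RXR peak inside a coding exon is therefore not the usual place for such an element, and exonic sites are described here apart from all others.

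Peaks on chromosomes 1 to 19, X and Y with a q value of 0.05 or less on the -log10 scale were kept in both genotypes and overlapping intervals were merged into 82141 sites, on the mouse build mm10. A site was called exonic when its summit lay in an exon of a protein-coding gene. Such exons cover 2.76% of the genome and held 43615 sites (53.1%). Another 3253 sites lay in pseudogene exons, 2568 in other exons and 32705 outside all exons. The 43615 exonic sites fell in 9495 of 21938 protein-coding genes.

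The libraries were unequal before any gene was compared. WT Pio lists were built from 2.50 to 4.05 M kept ChIP tags (M, mega) and KO Pio lists from 0.660 to 0.929 M. The fragment length that the peak caller had estimated was 142 to 157 bp in KO Pio. It was 191 and 263 bp in WT Pio 1 and 4, and 45 to 48 bp in WT Pio 2, 3 and 5, whose intervals had a median width of 45 to 49 bp against 173 to 189 bp in KO Pio. WT Pio 4 stood apart with 840 intervals, while the other WT lists held 5296, 8625, 19693 and 8682. The KO lists held 21265 to 30437. WT Pio 2, 3 and 5 are called the short-fragment libraries, and where they are left out a gene counted for WT had to be in both remaining livers.

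Exons took most of the KO Pio sites and a minority of the WT Pio sites. Sites in coding-gene exons made up 37.5%, 29.5%, 27.1%, 25% and 30.7% of sites in WT Pio 1 to 5. In KO Pio 1 to 5 they made up 78.3%, 80.3%, 74.9%, 74.8% and 80.7%. The groups did not overlap, and the means differed by -47.9 points (WT minus KO; 29.95 ± 4.76% in WT, 77.8 ± 2.85% in KO, SD, n = 5; exact two-sided permutation test, p = 0.00794, the smallest it can give; adjusted p = 0.0111 over 7 per-liver measures). With all lists shortened to the 840 strongest intervals, the difference was -49.6 points (WT minus KO, exact permutation test, adjusted p = 0.0139).

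Pseudogene exons showed the opposite order. They held 13.2% to 26.5% of WT Pio sites and 2.42% to 3.07% of KO Pio sites. The means were 20.7 ± 5.02% and 2.77 ± 0.235% (SD, n = 5; exact permutation test, adjusted p = 0.0111). Pseudogene exons cover 0.374% of the genome. Pseudogenes and their parent genes can share sequence, so which copy a read came from is uncertain.

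**Figure D1:**
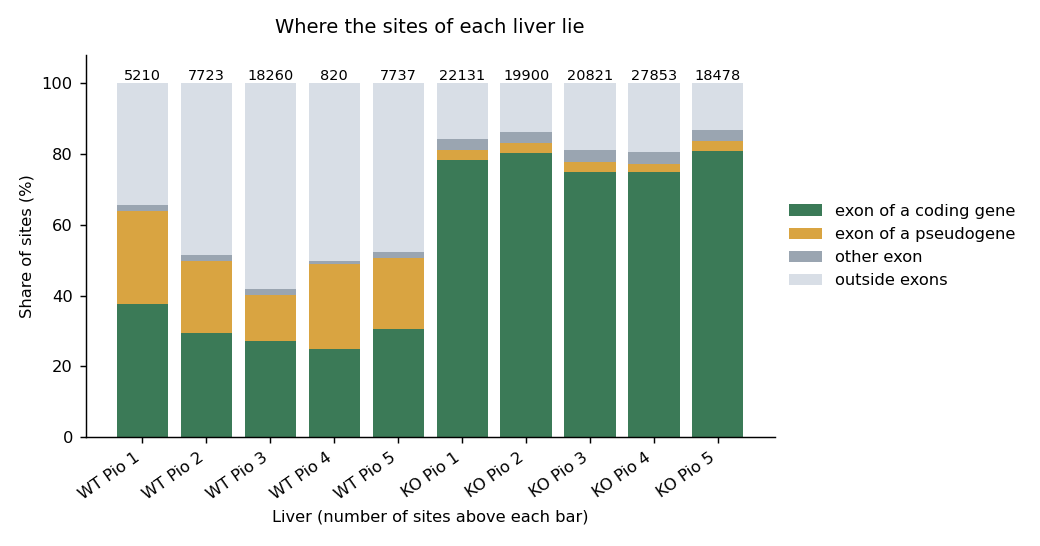
Stacked bars give, for each of the 10 livers, the percentage of sites (y axis) whose summit lies in an exon of a coding gene, of a pseudogene, in another exon or outside exons, with the number of sites above each bar. Coding-gene exons take 25.0% to 37.5% in WT Pio and 74.8% to 80.7% in KO Pio.

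The number of genes with an exonic site followed the same order. WT Pio 1 to 5 had 1250, 1430, 2677, 191 and 1475 genes, and KO Pio 1 to 5 had 5939, 5641, 5676, 6480 and 5407. Every KO liver exceeded every WT liver although each KO library had fewer kept tags than any WT library. The difference in the mean log2 number was -2.45 (WT minus KO; exact permutation test, adjusted p = 0.0111). It was -1.002 between lists of equal length and -1.83 without WT Pio 4.

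**Figure D2:**
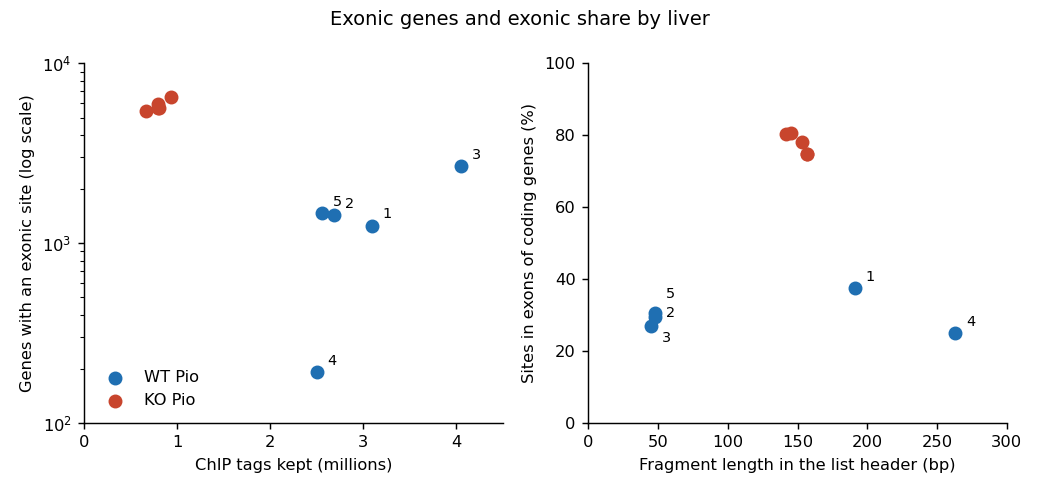
Each point is 1 liver: on the left the number of genes with an exonic site (log scale) against kept ChIP tags in M, on the right the percentage of sites in coding-gene exons against the fragment length in bp given in the list header, with WT livers numbered by replicate. KO livers hold 5407 to 6480 genes at 0.660 to 0.929 M tags, and the exonic share of WT livers stays at 37.5% or less at every fragment length.

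Within exons, the summit lay in coding sequence for 74.1% to 83.0% of the exonic sites of WT livers and for 62.1% to 63.2% of those of KO livers, the remainder being in untranslated parts. The exon-filling share, which is the mean percentage of a merged exonic site's width that lies inside annotated exons, was 77.5 ± 4.38% in WT and 83.3 ± 0.187% in KO (SD, n = 5; exact permutation test, adjusted p = 0.037). That difference reversed to 0.54 points without WT Pio 1 (adjusted p = 0.96).

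Genes were then sorted by the livers in which they had an exonic site. A gene found in at least 3 livers of one genotype and in none of the other was called WT only or KO only, and a gene in at least 3 livers of each was called both. Of the 9495 genes, 213 were WT only (2.24%), 3872 were KO only (40.8%) and 786 were in both (8.28%), while 4624 fell in no class. Over all 21938 protein-coding genes these are 0.971%, 17.6% and 3.58%. Fisher's exact test on livers called, run over 5179 genes found in at least 4 of 10 livers, called 2303 genes with more KO livers (44.5%) and 22 with more WT livers (0.425%). These were exactly the genes found in 5 livers of one genotype and none of the other (adjusted p = 0.0177), since 4 against none gave an adjusted p of 0.0676. Without WT Pio 4, 134 genes were called with more WT livers and 2303 with more KO livers. With lists of equal length the classes held 117 WT-only, 308 KO-only and 55 shared genes.

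The 8 leading KO-only genes included several known from neurons. Nnat (chr2:157560075-157562492, untranslated part of an exon), the imprinted neuronatin gene of developing brain, had fold enrichments over input of 47.2, 58.6, 41.3, 52.1 and 48.3 in KO Pio 1 to 5 and no exonic site in any WT liver. Basp1 (chr15:25363269-25365039), a growth cone membrane protein, ranged from 32.3 to 46.6 and Ptms, parathymosin, from 32.7 to 48.8. Mapt, the microtubule protein tau, reached 27.9 to 37.5. Dpysl3 and Crmp1, which encode collapsin response mediators of axon guidance, reached 29.1 to 53.0 and 23.8 to 35.3. Nrep, a neuronal regeneration-related protein, lay between 32.8 and 43.4 and Rtn1, the neuronal reticulon, between 25.2 and 36.8. All 8 were absent from the 5 WT lists and present in the 5 KO lists. Each also had an exonic site in all 5 KO Control livers and in no WT Control liver, whose lists held only 1 to 96 genes.

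The leading WT-only genes were of another kind. Slc26a3, a chloride and bicarbonate exchanger of colon epithelium, carried its strongest site in a coding exon (chr12:31465616-31465983). Its fold enrichment was 10.4, 17.3, 30.1, 4.45 and 15.8 in WT Pio 1 to 5, with no exonic site in KO livers. Cldn7 (chr11:69966852-69967207), an epithelial tight junction claudin, had 7.57, 7.95, 34.3, 2.58 and 20.9. Selenbp2 (chr3:94702186-94702709), a selenium-binding protein with a close paralog, had 3.66 to 22.7. The value of WT Pio 4 was the lowest of the 5 for each of these genes.

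Another 4 leading WT-only genes were ribosomal or intronless copies. Rpl36al (chr12:69182757-69183269), a ribosomal protein gene, had 3.16 to 24.0 and Rps27rt (chr9:114982331-114982885), an intronless relative of Rps27, had 2.20 to 23.9. Gm10260 (3.04 to 24.2) and Gm8797 (5.41 to 22.0) are coding genes in the annotation used here and pseudogenes in RefSeq. All 4 resemble expressed parent genes, so their signal is uncertain. Single-exon genes made up 20 of 213 WT-only genes (9.39%), 58 of 3872 KO-only genes (1.5%) and 19 of 786 in both (2.42%), against 2.54% of all 9495 genes with an exonic site and 6.15% of all protein-coding genes.

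Of the 8 leading genes found in both genotypes, 5 encode actin, tubulins or actin-binding proteins. Actb had 12.4, 13.6, 28.4, 3.02 and 18.1 in WT Pio 1 to 5 and 48.5, 48.2, 36.2, 71.8 and 54.9 in KO Pio 1 to 5. Tuba1a had 7.42 to 12.3 in WT and 40.4 to 55.5 in KO, and Ywhae, a 14-3-3 adaptor, 3.93 to 25.5 and 33.8 to 38.8. Cfl1, which severs actin filaments, lay at 4.46 to 18.6 and 33.2 to 36.0. Tmsb4x had 2.14 to 13.9 in WT and 29.1 to 49.5 in KO. Values of the neuronal tubulin Tubb3 are given with the level comparison. Eef1a1, the translation elongation factor, had 4.61 to 22.3 and 23.8 to 29.5. Calm2, calmodulin, had 4.30 to 24.9 in WT and 15.97 to 23.9 in KO. These 8 were ranked by mean enrichment over the livers, so they do not stand for all 786 genes in both. Among the 107 genes with an exonic site in all 10 livers, 13 (12.1%) were at least 2-fold higher in KO in the level comparison below. In WT 8 (7.48%) were.

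**Figure D3:**
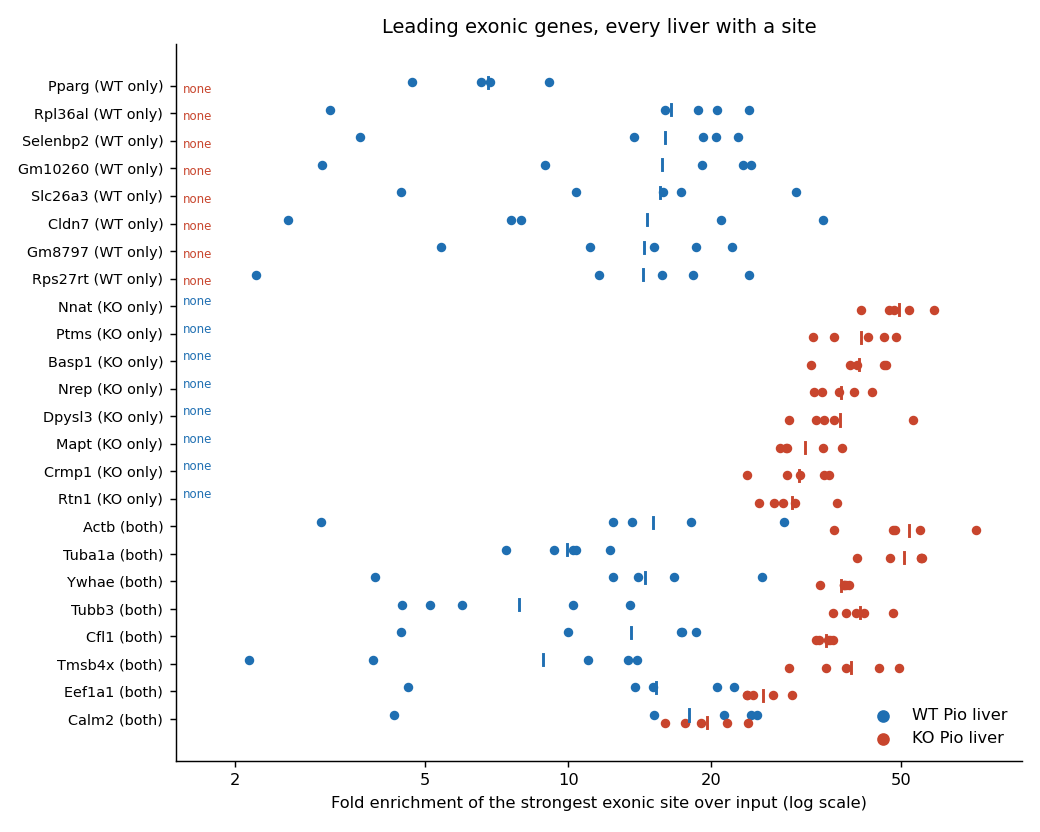
Points give the fold enrichment over input of the strongest exonic site (x axis, log scale) in each liver with a site, for Pparg and leading genes of each class; vertical ticks are means over the livers with a site and "none" marks a genotype with no liver called. Nnat lies at 41.3 to 58.6 in KO livers only and Slc26a3 at 4.45 to 30.1 in WT livers only.

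Pparg itself, the targeted gene, had exonic sites in WT livers only. The gene lies on the plus strand at chr6:115360951-115490399 and held 7 exonic sites. The strongest value per liver was 6.84, 6.55, 9.11 and 4.69 in WT Pio 1, 2, 3 and 5, and WT Pio 4 and all 5 KO livers had none. A site in a coding exon at chr6:115462983-115463295 was found in the same 4 WT livers, with 4 to 8 reads piled up at its summit. KO Pio 4 had an intron site at chr6:115462348-115462504 with a fold enrichment of 3.71 and a pileup of 3. Being called in 4 WT livers against none did not pass across all genes (Fisher's exact test, adjusted p = 0.0676). Leaving out WT Pio 4, the WT liver without a site, makes this 4 of 4 against none (Fisher's exact test, adjusted p = 0.0169). That pass follows from which liver was left out and adds no support. Pparg had a site in 1 WT liver when the short-fragment libraries were left out and in 0 with lists of equal length. The list files show peaks, not the floxed exon, so they do not check the deletion directly. No WT Control or KO Control liver had an exonic site in Pparg.

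Among 18 target genes of PPARg, 6 had an exonic site in any liver, against 9495 of all 21938 protein-coding genes. Of the 18, 2 reached 3 WT livers (11.1%) and 0 reached 3 KO livers, against 5.37% and 25.5% of all protein-coding genes. Neither with lists of equal length nor without the short-fragment libraries did any reach the WT minimum. Pck1, which controls gluconeogenesis and glycerol synthesis, was WT only, with 7.05, 9.12, 10.02 and 6.57 in WT Pio 1, 2, 3 and 5. Cav1, the caveolar coat protein, was found in 3 WT livers (3.74 to 5.47) and 2 KO livers (2.81 and 2.85). The fatty acid transporter Cd36 (3.75) and the droplet coat Plin2 (4.56) each had 1 WT liver. Lipoprotein lipase Lpl (3.71 and 3.77) and the desaturase Scd1 (3.67 and 3.71) each had 2 KO livers. Cidec, Cidea, Plin4, Plin5, Mogat1, Fabp4, Cfd, Adipoq, G0s2, Angptl4, Aqp7 and Acaa1b had no exonic site in any of the 10 livers. None of the 18 passed Fisher's test in either direction.

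Of 20 genes for RXR and its partners, 1 was in at least 3 WT livers (Pparg, 5% of the list) and 3 in at least 3 KO livers (15%). Among all protein-coding genes the shares were 5.37% and 25.5%. Thra, the thyroid hormone receptor alpha, had 20.5 to 24.3 in all 5 KO livers and passed (adjusted p = 0.0177). Rxrb had 2.78 to 6.08 in 4 KO livers and no WT liver, and the orphan receptor Nr2f2 had 4.38 to 5.57 in 4 KO livers and 4.56 and 5.32 in 2 WT livers. Rxra, Ppara, Nr1h3 (LXRa), Nr1h4 (FXR) and Hnf4a had none. Of 22 LXR, FXR and PPARa target genes, 2 reached 3 WT livers and 2 reached 3 KO livers (9.09% each). Abca1, the cholesterol exporter, had 3.71 to 4.70 in 3 KO livers, and Lpcat3, a phospholipid acyltransferase, 3.75 to 5.47 in 3 WT livers and 3.71 in KO Pio 4.

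Neural genes had exonic sites mainly in KO livers. The median protein-coding gene had none in either genotype. Of 45 neural genes, 3 reached 3 WT livers (6.67%) and 38 reached 3 KO livers (84.4%), with a median of 0 WT and 5 KO livers. The shares over all protein-coding genes were 5.37% and 25.5%. Per liver, 3, 1, 7, 1 and 5 neural members had a site in WT Pio 1 to 5 and 39, 37, 39, 39 and 38 in KO Pio 1 to 5. Fisher's test called 29 of the 45 with more KO livers, against 2303 of all 21938 protein-coding genes. The 29 included the synaptic genes Snap25, Syt1 and Syn1, the glutamate transporter Slc17a7 and the GABA-synthesising enzymes Gad1 and Gad2. Gap43, a growth cone protein, lay at 21.04 to 34.9 in KO. Tubb2b, a tubulin of migrating neurons, had 36.4 to 51.4 in KO and 4.69 to 6.38 in 3 WT livers, and Map1b, a microtubule protein of axons, 24.1 to 34.3 in KO and 3.64 in WT Pio 3. The neurofilament Nefh, the myelin gene Mbp, the astrocyte channel Aqp4 and Calb1 had no site in any liver. With lists of equal length, 16 neural members reached 3 KO livers and 0 reached 3 WT livers, and without the short-fragment libraries 38 reached 3 KO livers and 1 was in both remaining WT livers.

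Intestinal genes went the other way. Of 31, 11 reached 3 WT livers (35.5%) and 0 reached 3 KO livers, against 5.37% and 25.5% of all protein-coding genes. There were 10, 11, 16, 1 and 11 members per WT liver and 0, 1, 0, 1 and 0 per KO liver. The WT count was 4 with lists of equal length, and without the short-fragment libraries 1 member was in both remaining WT livers. The KO count was 0 in each case. Agr2, a goblet cell disulfide isomerase, had 7.05, 23.3, 21.2 and 23.5 in WT Pio 1, 2, 3 and 5. Car1, the carbonic anhydrase of colonocytes and red cells, had 5.29, 10.7, 21.7 and 28.2 in the same livers, and Krt19 had 6.55 to 16.4. Krt20, Lgals4, Cdh17, Pigr and Clca1 were each in 4 WT livers and no KO liver. Cldn7 alone passed Fisher's test, being the one member found in WT Pio 4. Fabp2, Cdx1, Muc13, Tff3, Sis and Lct, also defining genes of the list, had no site.

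Secreted liver proteins had few exonic sites and, in the lists as filtered, metabolic enzymes of hepatocytes had more in WT than in KO. Of 32 secreted liver proteins, 0 reached 3 WT livers and 2 reached 3 KO livers, namely Ttr (20.6 to 26.9) and Apoe (9.43 to 20.3), both also made by brain. Vtn (3.62 and 4.66) and Serpinc1 (3.68) had sites in 2 and 1 KO livers. Alb, Apoa1, Apob, Trf, Fgb, Serpina1a, Ahsg, Hp and C3 had none. Of 33 hepatocyte metabolic enzymes, 5 reached 3 WT livers (15.2%) and 1 reached 3 KO livers (3.03%), against 5.37% and 25.5% of all protein-coding genes. With lists of equal length 2 reached 3 WT livers and 0 reached 3 KO livers. Without the short-fragment libraries 1 was in both remaining WT livers and 1 reached 3 KO livers, so the order was lost. The 5 were Ugt2b1 (5.19 to 14.6, all 5 WT livers, adjusted p = 0.0177), Adh1 (9.31 to 21.9), Pck1, Fabp1 (4.32 to 9.40) and Ass1, and the 1 in KO was Gstm1. Cps1, Arg1, G6pc, Cyp2e1 and Cyp3a11 had none. How far RNA, DNA or cells of another source contributed to these lists was not tested, and bulk libraries cannot tell a site in more cells from a stronger site per cell.

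Muscle, blood and other non-hepatocyte lists split less clearly. All protein-coding genes stood at 5.37% in at least 3 WT livers and 25.5% in at least 3 KO livers. Of 18 smooth muscle genes, 9 reached 3 WT and 10 reached 3 KO livers (3 and 2 with lists of equal length, 1 and 10 without the short-fragment libraries), of which Acta2 (12.9 to 21.2 in 4 WT livers, 5.71 to 9.28 in KO) was in both and Flna (9.36 to 13.99) in KO only. Myl9, a myosin light chain, had 8.49 to 23.7 in 4 WT livers and 3.73 to 5.63 in KO, and Actg2, the enteric actin, 4.63 to 21.3 in 5 WT livers and 3.81 in KO Pio 5. Of 20 skeletal muscle genes only Acta1 had a site, in all 10 livers, and actin genes resemble each other closely. Of 22 blood and immune genes, Cd74 reached 3 WT livers and Hbb-bs, Hba-a1 and Hba-a2 reached 3 KO livers, the alpha globins being a near-identical pair. Hbb-bs lay at 7.61 to 13.9, and Hbb-bt had 5.55 in KO Pio 3. Of 19 stellate, endothelial and bile duct genes, 5 reached 3 WT and 6 reached 3 KO livers (0 and 0 with lists of equal length, 1 and 6 without the short-fragment libraries), with the collagens Col1a1 (3.74 to 7.29 in WT, 3.96 to 7.61 in KO) and Col3a1 and the keratin Krt7 in both.

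**Figure D4:**
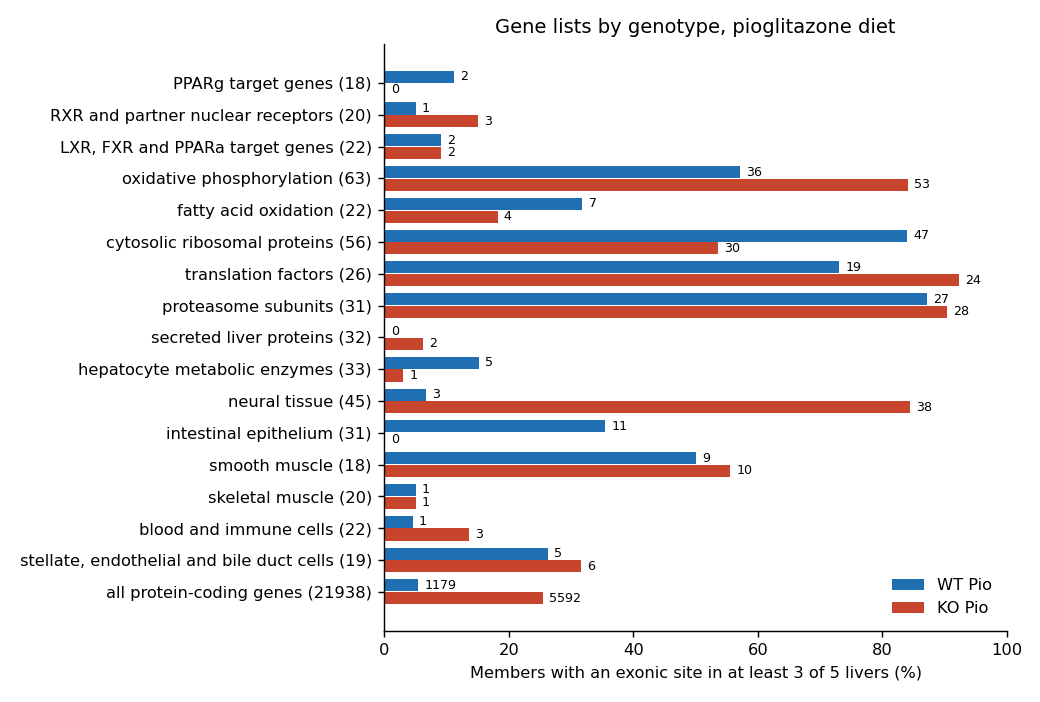
Bars give the percentage of each list's members with an exonic site in at least 3 of 5 livers (x axis), for WT Pio and KO Pio, with the number of members at the bar end and the list size in brackets. Neural genes reach 38 of 45 in KO and 3 in WT, and intestinal genes 11 of 31 in WT and 0 in KO. All protein-coding genes stand at 5.37% in WT and 25.5% in KO.

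In the lists as filtered, most members of the housekeeping lists reached 3 livers of each genotype, and far fewer did with lists of equal length. Over all protein-coding genes, 5.37% reached 3 WT livers and 25.5% reached 3 KO livers. Of 63 oxidative phosphorylation genes, 36 reached 3 WT livers (57.1%) and 53 reached 3 KO livers (84.1%), 31 of them in both. Fisher's test called 8 of the 63 with more KO livers, against 2303 of all 21938 protein-coding genes. With lists of equal length the order turned to 11 in WT and 7 in KO, and without the short-fragment libraries 9 were in both remaining WT livers. Atp5b, the ATP synthase beta subunit, had 4.64 to 29.8 in WT and 16.2 to 23.9 in KO, and the groups overlapped, as they did for Atp5a1 and Atp5g3. Atp5g2, which encodes a subunit of the membrane ring, had 10.6 to 19.1 in 4 WT livers and none in KO. Of 56 cytosolic ribosomal protein genes, 47 reached 3 WT livers and 30 reached 3 KO livers, and 17 were WT only against 2 KO only. With lists of equal length 21 reached 3 WT and 13 reached 3 KO livers, and without the short-fragment libraries the order turned to 8 in WT and 29 in KO. The 17 included Rps27 (8.13 to 25.0 in 4 WT livers), Rpl11, Rpl19, Rps6 and Rps25, while Rps3 (9.92 to 24.6 in 4 WT livers, 19.5 to 27.2 in KO) was in both, as was Rplp0. Ribosomal protein genes have many processed copies, so their counts are uncertain.

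For the next 3 lists, too, the shares over all protein-coding genes were 5.37% in WT and 25.5% in KO. Of 26 translation factors, 19 reached 3 WT livers (73.1%) and 24 reached 3 KO livers (92.3%). These became 6 and 8 with lists of equal length and 6 and 24 without the short-fragment libraries. Eef2 had 3.73 and 4.56 in 2 WT livers and 25.8 to 45.4 in 5 KO livers, which Fisher's test on livers called did not pass (adjusted p = 0.223). Eif4g2 had 5.24 to 18.1 in WT and 22.5 to 31.1 in KO, and Pabpc1, the poly(A)-binding protein, 5.203 to 15.5 and 15.2 to 21.5. Of 31 proteasome subunits, 27 reached 3 WT livers (87.1%) and 28 reached 3 KO livers (90.3%). These became 3 and 0 with lists of equal length and 1 and 28 without the short-fragment libraries. Psma6 had 10.9 to 17.8 in 4 WT livers and 5.71 to 10.3 in KO, whereas Psmb1, Psmb2 and Psmb6 overlapped between the genotypes. Of 22 fatty acid oxidation genes, 7 reached 3 WT livers (31.8%) and 4 reached 3 KO livers (18.2%), the latter below the share over all genes. With lists of equal length these were 1 and 0, and without the short-fragment libraries the order turned to 1 and 4. Hadhb, Etfa and Etfdh, which encode the trifunctional protein beta subunit and electron transfer flavoprotein components, were WT only. Etfb, the other electron transfer flavoprotein subunit, had 4.56 to 13.1 in 4 WT livers and 3.71 in KO Pio 4.

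Levels were compared in the 107 genes with an exonic site in all 10 livers. Log2 fold enrichment was centred on each liver's median over these genes, which in linear units was 10.2, 9.55, 15.1, 4.63 and 11.1 in WT Pio 1 to 5 and 9.32 to 11.1 in KO Pio. limma called 8 genes at least 2-fold higher in WT (7.48%) and 13 at least 2-fold higher in KO (12.1%). Without WT Pio 4, 427 genes could be tested, of which 38 were higher in WT and 45 in KO.

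The genes higher in KO were led by cytoskeletal genes. Tubb3, the neuronal beta tubulin, had 4.47, 5.99, 13.5, 5.13 and 10.2 in WT and 40.2, 38.4, 36.0, 48.2 and 41.9 in KO, a centred log2 difference of -2.41 ± 0.25 (WT minus KO, SE, n = 5; limma, adjusted p = 1.5e-09). Tmsb4x, the actin-sequestering thymosin, followed at -2.36 ± 0.28 (adjusted p = 3.17e-08), Tuba1a at -2.26 ± 0.23 (adjusted p = 1.5e-09) and Actb at -1.96 ± 0.25 (adjusted p = 8.5e-08), all by limma. Rpl4 had 4.55 to 9.77 in WT and 14.3 to 25.0 in KO, a difference of -1.51 ± 0.24.

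The genes higher in WT included mitochondrial and secretory pathway genes. Ost4, a subunit of the oligosaccharyltransferase that adds N-glycans, had 14.6, 14.4, 21.7, 3.93 and 17.6 in WT and 4.56, 2.77, 4.68, 3.54 and 2.85 in KO. Its difference was 1.91 ± 0.24 (limma, adjusted p = 8.5e-08), although the raw value of WT Pio 4 lay inside the KO range. Agbl5 (1.47 ± 0.25) overlaps Ost4 on the opposite strand, so the 2 may share signal. Ndufa6 and Ndufv2, subunits of respiratory complex I, differed by 1.76 ± 0.25 and 1.38 ± 0.23, and S100a10, the annexin A2 partner, by 1.62 ± 0.28.

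**Figure D5:**
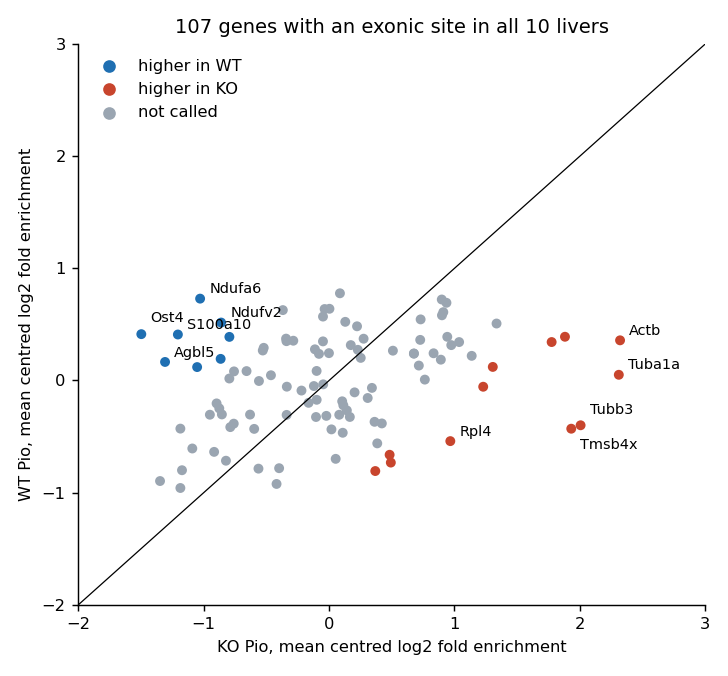
Each point is 1 of the 107 genes with an exonic site in all 10 livers, at its mean centred log2 fold enrichment in KO Pio (x axis) and WT Pio (y axis), with the line of equality. The 13 genes higher in KO lie below the line, led by Tubb3, Tmsb4x, Tuba1a and Actb, and the 8 higher in WT lie above it, led by Ost4.

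Sites outside exons were mostly found in single livers. WT Pio 1 to 5 had 1786, 3757, 10637, 412 and 3697, and KO Pio had 2470 to 5411. The groups overlapped and no difference was shown (-0.44 on the log2 scale, WT minus KO, exact permutation test, p = 0.651). The result turned on the lists, with 1.24 at equal length (exact permutation test, adjusted p = 0.0139) and -1.98 without the short-fragment libraries (adjusted p = 0.0476), which pass in opposite directions. Of the 32705 sites, 29954 (91.6%) were found in 1 liver. By the same rule 244 were WT only (0.746%), 794 KO only (2.43%) and 109 in both (0.333%). Fisher's test over 763 sites found in at least 4 livers called 184 with more KO livers (24.1%) and 16 with more WT livers (2.1%), all of them 5 against none (adjusted p = 0.0303). Without WT Pio 4, 115 sites were called with more WT livers.

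Most KO-only sites outside exons lay in or beside genes with recurrent exonic sites in KO. Of the 794, 662 lay in introns, 10 within 5 kb upstream and 29 within 1 kb downstream of a gene, and 93 elsewhere. In 666 (83.9%), the gene in or beside which the site lay also had an exonic site in at least 3 KO livers. Of the 244 WT-only sites, 94 lay in introns, 16 upstream and 134 elsewhere, and 5 (2.05%) belonged to a gene with recurrent exonic sites in WT. Of the 109 in both, 6 (5.5%) did so for both genotypes. These shares have unlike bases. Over all protein-coding genes, 25.5% had recurrent exonic sites in KO, 5.37% in WT and 3.58% in both. Sites placed elsewhere could not count, by definition.

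The strongest KO-only site, chr6:30803085-30806593 in an intron of Copg2, a COPI coat subunit, had a mean fold enrichment of 28.5 ± 5.49 (SD, n = 5). A neighbouring intron site at chr6:30802695-30803040 had 16.6 ± 3.15. A site at chr15:98953341-98953609, labelled as an intron of Gm49450, had 23.5 ± 4.70. It also lies inside Tuba1a (chr15:98949837-98953703), a gene with strong exonic sites in KO, so it cannot be assigned to Gm49450 alone. Among WT-only sites, 1 between genes, 117403 bp from Txnl1, had 17.8 ± 12.4. It was followed by chr8:111309672-111310329, 1737 bp from Mlkl, at 15.2 ± 5.67, and an intron site of Tmem132d (chr5:127954922-127955461) had 11.6 ± 5.14. The strongest site in both, chr17:4626030-4626698, lay far from any protein-coding gene and had 11.3 ± 7.13 in WT and 34.6 ± 15.8 in KO. The bases at its best DR1 match, which had 7 mismatches, form a short tandem repeat. Where its reads came from was not tested.

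DR1 elements were rare at sites outside exons in both genotypes. The element, AGGTCA, any base and AGGTCA again, with at most 2 mismatches, on either strand and within 100 bp of the summit, was found at 1.90%, 1.86%, 1.86%, 2.43% and 1.68% of such sites in WT Pio 1 to 5. In KO Pio 1 to 5 it was found at 3.15%, 2.77%, 3.14%, 2.86% and 2.71%. The groups did not overlap (-0.98 points, WT minus KO; exact permutation test, adjusted p = 0.0111). For comparison, 2.2% of 26477 windows of the same length placed every 100 kb along the genome held it, as did 2.62% of the exonic sites. With at most 1 mismatch the difference was -0.19 points (adjusted p = 0.0741), and with lists of equal length it reversed to 1.86 points (adjusted p = 0.0667).

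The closest matches are shown because, among the sites outside exons in these 3 classes, no others came within 1 mismatch of the element. All 5 were KO only, found in 3 to 5 KO livers with mean fold enrichments of 3.69 to 5.00. They are 5 of the 794 KO-only sites. Matches this close occurred in 0.283% of the genome windows and 0.318% of all sites outside exons, so having none among the 244 WT-only and 109 shared sites says little. Capitals mark the pair of hexamers, read 5′ to 3′ on the strand of the match (mm10), with 6 bases on each side.
Dmwd intron, chr7:19077555-19077579, minus strand, no mismatch: atgtagAGGTCAgAGGTCAacatcg
Gramd1a intron, chr7:31138104-31138128, minus strand, 1 mismatch: agcgcaAGTTCAcAGGTCAgggggc
Glg1 downstream, chr8:111153636-111153660, minus strand, 1 mismatch: aggaacAGGTCCcAGGTCActtggc
Near Map3k9, chr12:81715798-81715822, plus strand, 1 mismatch: tcggggAGATCAcAGGTCAgccaga
Grk2 intron, chr19:4290722-4290746, plus strand, 1 mismatch: aggctgGGGTCAgAGGTCActacgg

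The leading sites by enrichment did not come as near the element. The best matches at the strongest KO-only site and at 2 of the 4 leading WT-only sites are given for contrast, written the same way.
Copg2 intron, chr6:30805064-30805088, plus strand, 3 mismatches: gcatagAGGTGAaAGGTGTttatag
Near Mlkl, chr8:111310015-111310039, plus strand, 5 mismatches: tgcttaCCAGCAaAGATCAgcctct
Tmem132d intron, chr5:127955115-127955139, plus strand, 4 mismatches: agcgcaAGAACAtATGCCAgttcct
A match or its absence says only whether these letters lie in the window.

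The Control livers took no part in sorting the genes. Of the 3872 KO-only genes, 2834 (73.2%) had an exonic site in at least 3 KO Control livers and 0 in at least 3 WT Control livers. Of the 786 genes in both, 685 (87.2%) did so in KO Control and 1 in WT Control. Of the 213 WT-only genes, 2 (0.939%) did so in KO Control and 0 in WT Control. WT Control lists held few genes with an exonic site, 1 to 96 per liver (median 16), against 2553 to 5738 in KO Control. Not all of these lists were short. WT Control 2 had 11467 sites and WT Control 4 had 3695, of which 0.837% and 0.866% were exonic, while the other WT Control lists had 148 to 283 sites. With so few exonic genes per liver, the WT Control counts of 0 and 1 were close to fixed in advance. The share of all 9495 genes reaching 3 KO Control livers is not given, so the KO Control percentages compare the 3 classes only with one another. The neural list again had 38 members in at least 3 KO Control livers and the intestinal list 0.

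Whether the genotype difference itself depended on Pio, both groups being on control diet, was then asked. The test did not pass in either measure. It permutes the genotype labels, which leaves the genotype differences themselves in the reference spread, so it cannot answer the question. The difference without Pio rests on WT Control lists of 1 to 96 genes per liver. In log2 exonic genes the genotype difference was -2.46 with Pio and -8.32 without, a gap of 5.87 (permutation of genotype labels within Pio and within Control, 100000 resamples, two-sided, p = 0.0637, adjusted p = 0.127 over 2 measures). In exonic share it was -47.9 and -72.3 points (permutation test, adjusted p = 0.417). When the 4 group means were taken off before permuting, a choice made after the data were seen, both gave the smallest p the resamples allow (1e-05). Sites were merged over 20 libraries for these values.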

How the data were processed

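Chromatin immunoprecipitation lists of 10 Pio livers and, for reference, 10 Control livers were analysed. The authors aligned 50-base reads to mm10 with Novoalign and called peaks against input with MACS2 2.1.1.20160309, with a p cutoff of 0.001 in WT and a q cutoff of 0.05 in KO, per the file headers. The deposited lists give fold enrichment (a ratio over input), pileup (signal at the summit) and −log10 p-value and q-value. Reads were not analysed here, so the authors' read-count test was not repeated.

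Rows with a q of 0.05 or less were kept. Between 13.0% and 54.6% of WT rows and 0% of KO rows fell below it. Depth is limited: tags kept after duplicate removal numbered 0.660 to 4.05 M, and a site with few reads can be missed. Intervals overlapping by at least 1 bp were merged, and a site was placed by the summit of its strongest liver on GENCODE M21 exons of protein-coding transcripts. All peaks lay within the chromosome lengths of GRCm38.p6, the RefSeq sequence used for the element search. A first look used exons of all transcripts of coding genes and was replaced after its counts were seen. A gene's value is the highest fold enrichment of its exonic sites.

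Per-liver measures used exact permutation tests with Benjamini-Hochberg adjustment over 7. Calls used Fisher's exact test over features in at least 4 of 10 livers and adjusted p below 0.05, where only 5 livers against 0 can pass. Levels used limma 3.58.1 (R 4.3.3) on centred log2 fold enrichment, with a minimum of 2-fold. Tests were checked on simulated data. Replicates are separate mice per the study's methods.

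Named genes were Pparg, its targets, the 8 exonic genes per class with most livers and then highest enrichment, 4 outside-exon sites per class, 5 genes per direction from limma and up to 4 genes per list. Others were named after their values were seen. Some items that the rule names are not reported here. The members and lists were chosen with earlier results of these data known. Alternatives were the q minimum, equal list lengths, placing by overlap, the minimum number of livers, omitted livers, pairing and the exon set.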

Additional observations from a re-analysis of the deposited data

Results flagged for a closer look

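In 13 of 117 groups of 4 or 5 livers tested, 1 liver lay further from the rest than Dixon's limit allows, where chance alone gives about 1 in 20 groups. WT Pio 4, the list with 840 intervals and a fragment length of 263 bp, was that liver for the number of genes with an exonic site (191) and for the fold enrichment of Rpl36al (3.16), Selenbp2 (3.66), Calm2 (4.30) and Ost4 (3.93). In the other WT livers it was Agr2 (7.05, WT Pio 1), Col1a1 (3.74, WT Pio 2), Hadhb (9.77, WT Pio 3) and Krt7 (16.5, WT Pio 3). In KO Pio it was Ywhae (33.8, KO Pio 1), Rps3 (19.5, KO Pio 1), Acta1 (7.62, KO Pio 3) and Eef2 (45.4, KO Pio 4). Whether the short list of WT Pio 4 accounts for its low values was not tested.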

How the results depend on the processing

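The exonic share, the pseudogene share and the number of genes with an exonic site kept their direction and passed under every alternative computed except pairing by number (the pseudogene share was not computed with placing by any overlap). The numbers did not pair the livers: over 107 genes, same-numbered WT and KO livers correlated at 0.276, 0.129, 0.0297, -0.172 and 0.0832. With the replicate block, where sign changes cannot give a p under 0.0625, no per-liver measure passed (sites -1.997, exonic genes -2.45, exonic share -47.9, pseudogene share 17.96 and DR1 share -0.98, each with adjusted p = 0.0875 by exact sign permutation, and exon-filling share -5.82, adjusted p = 0.146), while limma still called 8 and 13 genes.

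With peaks as deposited, sites fell to -1.26 (adjusted p = 0.102), outside-exon sites reversed to 0.60, exon filling was -5.32 and 28 outside-exon sites were called with more WT livers. At a -log10 q of at least 5, exon filling was -2.58 and the DR1 share -1.01, neither passing. Fisher's test then called 938 genes for KO and 8 for WT, and 42 and 2 outside-exon sites. The classes held 1793 KO-only and 270 shared genes, and 125 WT-only, 145 KO-only and 44 shared outside-exon sites. With equal lengths, outside-exon sites reversed to 1.24 (exact permutation, adjusted p = 0.0139) and the DR1 share to 1.86, and exon filling was -2.09. Fisher's test called 169 genes and 6 outside-exon sites for KO. The classes held 117, 308 and 55 genes and 51, 17 and 13 outside-exon sites (WT only, KO only, both). Placing by any overlap gave 0.088 for outside-exon sites, 61 KO calls and 298 KO-only sites there.

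Without WT Pio 2, 3 and 5, outside-exon sites differed by -1.98 (exact permutation, adjusted p = 0.0476, the smallest possible), Fisher's tests, in which 2 livers against 5 cannot give a p under 0.0476, called 0, and the classes held 23 WT-only and 134 shared genes and 27 WT-only and 21 shared outside-exon sites. With no filter on livers, so that all 32705 shared the adjustment, 0 outside-exon sites were called in either direction. DR1 at most 1 mismatch gave -0.19. A minimum of 4 livers gave 136 WT-only and 505 shared genes and 118, 406 and 65 outside-exon sites. A minimum of 2 gave 347, 1224, 515, 1872 and 174. Removing group means first left the contrasts of Pio with Control at 5.87 and 24.4, now past the threshold. limma called 14 genes for WT on pileup, and 43 and 54 among genes in at least 4 of 5 livers of each group.

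Leaving out 1 liver moved exon filling from -6.93 to 0.54, outside-exon sites from -0.95 to 0.22, WT-only genes from 139 (without WT Pio 3) to 238, WT-only outside-exon sites from 138 (without WT Pio 3) to 2.5e+02 (rounded) and KO-only ones from 510 (without KO Pio 4) to 824. It moved WT calls from 22 to 134 genes and from 16 to 115 outside-exon sites, and limma calls from 7 to 38 and 12 to 45, the highest each without WT Pio 4. Single genes that changed direction in livers called, WT minus KO, were Myl9 (3 at the higher q minimum), and with equal lengths Acta2 (4), Myl9 (3), Psma6 (3), Psmb1 (2), Psmb2 (3) and Psmb6 (2). Without WT Pio 2, 3 and 5 they were Cav1 (-1), Col3a1 (-2) and Krt7 (-2). The exon set, exchanged after the data were seen, moved no class count by over 1.5 times. The cause of these changes was not tested. Depth limits the lists, since sites such as those in Pparg rest on 3 to 9 reads.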
